A study of Mus musculus with 21 samples.

Results

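The effect of dimethyl malonate (DMM) given before lipopolysaccharide (LPS) on the transcriptome of mouse bone-marrow-derived macrophages was read 4 h after LPS. The comparison sets cells that received DMM for 3 h and then LPS for 4 h against cells that received LPS for 4 h without DMM. It used 4 of the study's 21 libraries, 2 of each group (replicates A and B), chosen by their labels and not by their values. All cells came from the marrow of C57bl/6 mice aged 12 weeks and were matured in medium conditioned by L929 cells, a fibroblast line that secretes the macrophage growth factor M-CSF. The cells carried no engineered allele in the labels. The other libraries held untreated cells, cells given DMM or succinate without LPS, cells given succinate before LPS, and the same LPS groups at 48 h. Cells were lysed directly and full-length cDNA libraries were made by a modified SmartSeq2 protocol, which amplifies cDNA and does not mark strand. The sources used here give no dose of DMM or LPS. Since the labels do not say whether replicates were separate mice or cultures, p-values measure only how far these libraries spread, which may be technical.

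LPS, a component of the outer membrane of Gram-negative bacteria, activates macrophages through Toll-like receptor signalling, which acts through NF-κB and type I interferon. Succinate dehydrogenase oxidises succinate in the tricarboxylic acid (TCA) cycle and passes the electrons to the respiratory chain. Malonate is a competitive inhibitor of this enzyme, and DMM is its membrane-permeable ester. Activated macrophages accumulate succinate and make itaconate, itself an inhibitor of succinate dehydrogenase, through the product of Irg1.

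The 4 libraries held between 1203399 and 1546867 counts, within a range of 662186 to 1546867 over the series. Levels are counts normalised to library size (CPM) with scaling by the trimmed mean of M values (TMM), and changes are log2 fold changes ± standard error (SE) of DMM then LPS over LPS. A gene was called higher or lower when its Benjamini-Hochberg adjusted p in edgeR's quasi-likelihood test was under 0.05 over 6812 genes tested. The library labelled LPS 48 h replicate 1 was left out of the model. It held 38 counts of the acute-phase gene Saa3, against at least 41149 in every other stimulated library, and its nearest library was an unstimulated DMM library. All 4 libraries compared here carried the Saa3 level of stimulated cells, with 71042 and 104120 CPM after DMM then LPS, against 86349 and 101800 CPM after LPS (log2 fold change -0.10 ± 0.52, not called). The macrophage marker Lyz2, a lysozyme gene, was also abundant. It had 74855 and 111260 CPM after DMM then LPS, against 88435 and 104920 CPM after LPS. Not all macrophage genes were level, since 5 of the 20 tested in the identity list were called lower and 1 higher. Reads were not tied to molecules, so counting intervals cover counting error only.

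DMM before LPS left 956 of 6812 genes called at 4 h, or 14% of those tested. Of these, 241 were higher, 3.54% of the genes tested, and 715 were lower, 10.5%. The genes that fell were mostly abundant and those that rose mostly scarce, with median levels of 108.9 CPM for lower genes and 10.7 CPM for higher genes. Among the 127 genes at 1000 CPM and over, 56 fell and 1 rose, and their median log2 fold change was -1.05. Among the 2359 genes under 10 CPM, 40 fell and 111 rose, with a median of 0.472. The median over all genes was 0.0404. Lower genes had a median log2 fold change of -1.57 and higher genes one of 1.93. Shares and medians of the gene lists below are set against all genes and are not matched for level.

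A few transcripts took a larger share of the DMM then LPS libraries, and the balance of the 2 directions moved with how libraries were scaled. The 20 most abundant genes held 56.4% and 59.5% of counts after DMM then LPS, against 43.4% and 45.4% after LPS. The ferritin gene Fth1 alone took 11.0% and 10.6% of counts after DMM then LPS, against 5.25% and 5.61% after LPS. After TMM scaling its fold change was 0.57 ± 0.41 and was not called (adjusted p = 0.378). For Spp1, which encodes osteopontin, the shares were 10.6% and 10.8% after DMM then LPS, against 2.22% and 2.57% after LPS, although its fold change (1.74 ± 0.66, adjusted p = 0.0797) missed the threshold. The spread in that test also draws on the other groups, and Spp1 ran from 16803 to 67480 CPM among libraries with DMM without LPS. How far this spread set the p-value was not tested. The TMM factors were 1.17 and 0.893 in the DMM then LPS libraries, against 0.786 and 0.726 in the LPS libraries. With upper-quartile scaling, chosen after seeing the data, the median of all genes shifted by 0.247 and the calls split into 501 higher and 529 lower, so that 48.6% of calls were higher in place of 25.2%. At equal depth, 12527 and 12013 genes were detected after DMM then LPS, against 11479 and 10953 after LPS.

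**Figure D1:**
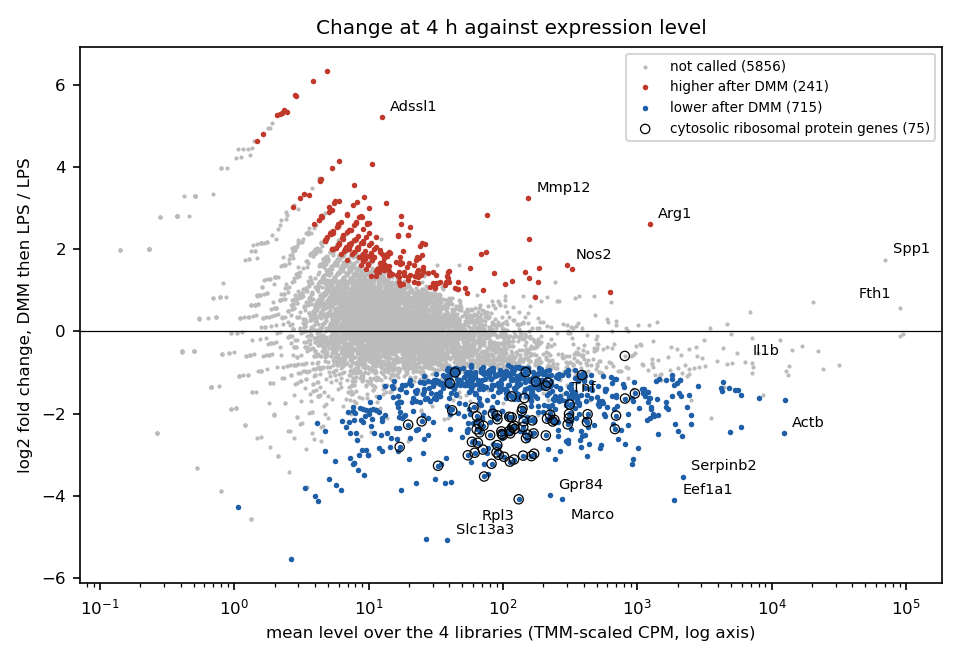
Log2 fold change of DMM then LPS over LPS at 4 h (vertical axis) against the mean TMM-scaled CPM of the 4 libraries (horizontal log axis), 1 point per tested gene, with called genes coloured by direction. The 715 lower genes lie mostly at high levels (median 108.9 CPM) and the 241 higher genes at low levels (median 10.7 CPM).

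Transcript length also moved with the calls. In the GENCODE vM21 annotation the longest transcript had a median of 3164 bases for higher genes, 2280 bases for lower genes and 3496 bases for genes that were not called, over the 92.1% to 95.2% of each group that matched by symbol. Between 10 and 30 CPM the medians were 1978 bases for lower genes and 3636 bases for uncalled genes, whereas at 300 CPM and over they were 2403 and 2384 bases. The part of length in the fold changes was not tested. In bulk libraries fewer cells of a type and less RNA per cell cannot be told apart, and every level is relative to the rest of its library.

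Each of the 4 libraries carried weight. Without DMM then LPS replicate A, 279 genes were called (57 higher, 222 lower). Without DMM then LPS replicate B there were 614 (128 higher, 486 lower), without LPS replicate A 523 (72 higher, 451 lower) and without LPS replicate B 484 (80 higher, 404 lower). In these fits the lone library of a group is assumed to vary like the other groups. Of the lower genes, 205 of 715 kept their call in all 4 fits, and of the higher genes 20 of 241 did. These 20 included the arginase gene Arg1, the inducible nitric oxide synthase gene Nos2, the cyclooxygenase gene Ptgs2, the alarmin gene S100a8 and the tetraspanin gene Cd9.

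The genes with the lowest fold changes span transport, pathogen recognition and protein synthesis. Slc13a3, which encodes a sodium-coupled transporter of succinate and other dicarboxylates, had 1.69 and 2.79 CPM after DMM then LPS, against 72.5 and 77.5 CPM after LPS (log2 fold change -5.07 ± 0.53, adjusted p = 9e-07). The arms were far apart, and the 3 untreated controls held none of this transcript. Marco, a scavenger receptor for bacteria, had 29.2 and 33.4 CPM after DMM then LPS, against 498 and 548 CPM after LPS (log2 fold change -4.06 ± 0.38, adjusted p = 2.32e-08). Gpr84, a receptor for medium-chain fatty acids, had 24.7 and 28.8 CPM after DMM then LPS, against 466 and 376 CPM after LPS (-3.98 ± 0.45, adjusted p = 2.23e-06). The rule that named both receptors required each DMM then LPS library to lie below each LPS library.

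Serpinb2, the plasminogen activator inhibitor abundant in activated macrophages, had 270.3 and 431 CPM after DMM then LPS, against 3816 and 4265 CPM after LPS (-3.53 ± 0.45, adjusted p = 3.55e-06). Siglece, an inhibitory receptor that binds sialic acid, had 14.6 and 10.2 CPM after DMM then LPS, against 139 and 147 CPM after LPS (-3.48 ± 0.38). The ribonuclease gene Rnaset2b also fell (2.81 and 7.43 CPM after DMM then LPS, against 55.5 and 59.2 CPM after LPS), but its near-identical copy Rnaset2a makes its count uncertain. Others in this set of 12 were Eef1a1, Rpl3, Rps23, the pseudogenes Actg-ps1 (-5.05 ± 0.96) and Rps15-ps2 (-3.37 ± 0.80), and Wdr38. Wdr38 held 2 counts over both DMM then LPS libraries and 22 over both LPS libraries (16.8-fold lower, with a 95% counting interval of 4.14 to 148), and its exons overlap those of Rpl35 and Arpc5l in the annotation. With 1 library left out at a time, the calls of Slc13a3, Marco, Gpr84, Serpinb2, Siglece, Rnaset2b and Actg-ps1 held in all 4 fits. Rps15-ps2 (-3.89) and Wdr38 (-3.49) lost their calls without DMM then LPS replicate A. Values in parentheses are the fitted changes without the library named. Without DMM then LPS replicate B the fitted change of Actg-ps1 was -8.76, because the other DMM then LPS library held none of it.

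Among genes with the highest fold changes, most were near the floor in LPS cells. Adssl1, an adenylosuccinate synthase of purine metabolism, had 19.7 and 29.7 CPM after DMM then LPS, against 1.07 and 0 CPM after LPS, which is 67 counts against 1 (43.8-fold higher, with a 95% counting interval of 7.60 to 1760). Rhov, a small GTPase, had 56 counts after DMM then LPS against 2 after LPS (18.3-fold higher, with a 95% counting interval of 4.84 to 155). Ddah2, which degrades methylarginine inhibitors of nitric oxide synthase, had 29 counts against 1 (19-fold higher, with a 95% counting interval of 3.14 to 774). The rule that named these genes required both DMM then LPS libraries to lie above both LPS libraries. Cit, a kinase of cytokinesis, had 32 counts against 1 (20.9-fold higher, with a 95% counting interval of 3.49 to 852). The erythrocyte membrane protein gene Gypc (38 counts against 2), the coregulator Sertad3 (31 against 2), the glucose-6-phosphatase G6pc3 (29 against 2), the inhibitory receptor Havcr2 (30 against 2), Ifi27l1 (44 against 3) and the initiation factor Eif2d (46 against 3) had ratios between 9.48 and 12.4. Exons of Eif2d overlap those of Rassf5 on the other strand, so its reads cannot be told apart from that gene's.

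Mmp12, the macrophage elastase, was the most abundant of the 12, with 210.2 and 348 CPM after DMM then LPS, against 26.7 and 32.3 CPM after LPS (log2 fold change 3.24 ± 0.78, adjusted p = 0.0121). The chemokine receptor gene Ccr1 had 25.3 and 23.2 CPM after DMM then LPS, against 0 and 5.38 CPM after LPS (3.13 ± 0.75). When each library was omitted in turn, the calls of Adssl1, Rhov and Ddah2 held in all 4 fits. Cit (3.28 to 6.61) lost its call in all 4 fits. Gypc fell under the filter on low counts and was not tested without either DMM then LPS replicate, and lost its call without either LPS replicate (3.57 and 3.58). G6pc3 was not tested without DMM then LPS replicate B, and lost its call in the other 3 fits (3.16 to 3.56). Eif2d (2.87) lost its call without LPS replicate A, and Sertad3 (not tested there, 3.16 and 3.17) and Havcr2 (2.84, 3.13 and 3.14) without DMM then LPS replicate A or either LPS replicate. Ifi27l1 (2.83 and 2.20) lost its call without DMM then LPS replicate A or LPS replicate B, and Mmp12 (2.84, 3.11 and 3.38) without DMM then LPS replicate B or either LPS replicate. Ccr1 (3.07 and 2.16) lost its call without DMM then LPS replicate A or LPS replicate A. For genes with 1 to 3 counts in an arm these fitted changes depend on the prior count.

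**Figure D2:**
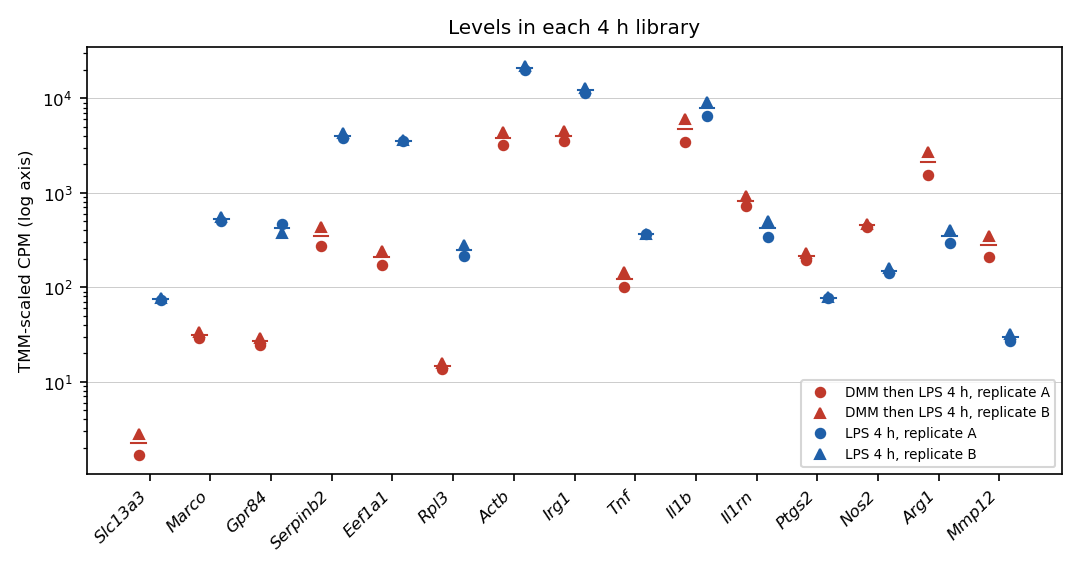
TMM-scaled CPM (log axis) of genes described in the text in each of the 4 libraries, with DMM then LPS to the left of LPS for each gene, 1 point per replicate and a short line at the mean. Arg1, Nos2 and Ptgs2 lie higher in both DMM then LPS libraries, and Slc13a3, Marco and Eef1a1 lie lower in both.

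Among genes of succinate dehydrogenase and of succinate and itaconate handling, 5 of 12 tested members fell and none rose (median log2 fold change -0.748, against 0.0404 over all genes). Besides Slc13a3 these were Irg1, the itaconate-producing decarboxylase, the succinate dehydrogenase subunits Sdha and Sdhb, and the mitochondrial dicarboxylate carrier Slc25a10. Irg1 had 3512 and 4481 CPM after DMM then LPS, against 11462 and 12885 CPM after LPS (log2 fold change -1.61 ± 0.46, adjusted p = 0.0162). Sdhb, the iron-sulphur subunit, had 71.9 and 83.6 CPM after DMM then LPS, against 157 and 154 CPM after LPS (-1.001 ± 0.28), and the flavoprotein subunit Sdha had 89.9 and 87.3 CPM after DMM then LPS, against 174 and 152 CPM after LPS (-0.88 ± 0.28). Both subunits averaged between 100 and 300 CPM over the 4 libraries. Of all 473 tested genes at that level 205 fell, and their median was -0.884. The membrane anchor genes were not called, with changes of 0.18 ± 0.40 for Sdhc and -0.33 ± 0.32 for Sdhd. Apart from Slc13a3, these calls were fragile. Irg1 (-1.78 to -1.43), Sdha (-0.97 to -0.77), Sdhb (-1.10 to -0.88) and Slc25a10 (-1.43 to -1.001) lost their calls in all 4 fits. With upper-quartile scaling 2 of the 12 were called lower. The succinate receptor gene Sucnr1 had at most 1 count in any library and was not tested.

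In the TCA cycle as a whole 4 of 23 tested genes fell, or 17.4%, against 10.5% of all tested genes. The median was -0.332, and -0.0918 with upper-quartile scaling. Those not named above were cytosolic Idh1 (-1.34 ± 0.35) and mitochondrial malate dehydrogenase Mdh2 (-0.98 ± 0.30). Mdh2 (-1.14 to -0.82) lost its call in all 4 fits. Idh1 (-1.28, -1.38 and -1.29) lost its call without either DMM then LPS replicate or LPS replicate B. Nuclear genes of oxidative phosphorylation were lower for 20 of 54, higher for none, and had a median of -1.03. The called members were 9 cytochrome c oxidase genes, 10 ATP synthase genes and the complex III gene Uqcrc1, and none of the complex I (Nduf) genes in the list was called. The cytochrome oxidase subunit Cox5b had 16.9 and 30.6 CPM after DMM then LPS, against 98.1 and 109.7 CPM after LPS (-2.17 ± 0.33), Cox4i1 changed by -2.15 ± 0.42 and the ATP synthase gene Atp5l by -2.60 ± 0.46. These 3 kept their calls in all leave-out fits, as did 4 of the 20 in all, and with upper-quartile scaling 12 of the 54 were lower. Of 11 mitochondrially encoded transcripts, 3 fell (mt-Nd1 -1.64 ± 0.38, mt-Nd5 -1.52 ± 0.36 and mt-Co2 -1.30 ± 0.38). Mt-Nd1 (-1.30 and -1.35), mt-Nd5 (-1.34 and -1.31) and mt-Co2 (-0.94 and -0.88) lost their calls without DMM then LPS replicate B or LPS replicate B. The 55 mitochondrial ribosomal protein genes tested, a family chosen after values were seen, gave no call in either direction (median 0.173).

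Cytosolic ribosomal protein genes were lower for 68 of 75 tested members and higher for none, with a median of -2.27 (-2.02 with upper-quartile scaling) and a range from -4.08 to -0.595. They held 0.530% and 0.580% of all counts after DMM then LPS, against 1.56% and 1.65% after LPS. The 7 without a call were Rpl22, Rpl39, Rpl41, Rplp0, Rps2, Rps24 and Rps27, and 45 of the 68 calls were kept in all 4 leave-out fits. Eef1a1, the elongation factor that brings aminoacyl-tRNA to the ribosome, had 173 and 244 CPM after DMM then LPS, against 3520.3 and 3632 CPM after LPS (log2 fold change -4.10 ± 0.45, adjusted p = 4.85e-07). Untreated controls averaged 5134 CPM of Eef1a1, and the single library with succinate before LPS at 4 h held 3889 CPM. Rpl3, of the large subunit, had 13.5 and 15.8 CPM after DMM then LPS, against 214 and 281 CPM after LPS (-4.08 ± 0.37, adjusted p = 2.32e-08). In the small subunit, Rps23 had 9.55 and 13.9 CPM after DMM then LPS, against 139.7 and 127 CPM after LPS (-3.53 ± 0.44) and Rps6 changed by -3.11 ± 0.41. Many of these genes have processed pseudogenes, so their counts are uncertain where reads match several copies.

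Transcripts of ribosomal proteins and elongation factors carry a run of pyrimidines at their 5′ end, known as the 5′ terminal oligopyrimidine motif, through which their translation is controlled. The starts of Eef1a1, Rps6 and Rps23 are printed because these members fell and a tract of at least 6 C or T letters lies near their annotated start. Each runs from 60 bases before to 25 bases after the start in RefSeq (build GRCm38.p6), on the gene's strand, with the tract in capitals. Relative to the annotated start, the tract begins at -5 for Eef1a1, -1 for Rps6 and 3 for Rps23. They lie at chr9:78481700-78481784, minus strand (Eef1a1), chr4:86857343-86857427, minus strand (Rps6) and chr13:90923062-90923146, plus strand (Rps23).
Eef1a1: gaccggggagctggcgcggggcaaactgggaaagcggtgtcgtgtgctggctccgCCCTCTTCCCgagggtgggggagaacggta
Rps6: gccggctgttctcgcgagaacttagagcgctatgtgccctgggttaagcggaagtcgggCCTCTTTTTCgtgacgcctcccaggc
Rps23: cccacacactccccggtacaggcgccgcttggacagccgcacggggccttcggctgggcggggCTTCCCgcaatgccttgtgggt
A tract of this length touching the 10 bases before or 10 bases after the start, on the gene's strand, was found at 32.7% of the 27025 genes with a promoter in the table. Only 55 of the 75 ribosomal protein genes tested have a promoter there, under the 80% needed, so a share over the list is void. The match is a description of letters near a start, and does not show that the tract is the 5′ end of the RNA.

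Further parts of the translation and protein quality machinery were grouped after their values were seen. Of 6 translation elongation factor genes 4 fell (median -1.70), and of 43 initiation factor (Eif) genes 10 fell and Eif2d rose (median -0.282). Gnb2l1, the ribosomal scaffold also called RACK1, had 189 and 235 CPM after DMM then LPS, against 1404 and 1432 CPM after LPS (-2.74 ± 0.38). Proteasome subunit genes were lower for 14 of 37 and higher for none (median -0.744). Of 26 genes of endoplasmic reticulum chaperones and the unfolded protein response 8 fell (median -0.771), including the chaperones Hspa5 (-1.83 ± 0.37) and Calr (-2.17 ± 0.38). Of 15 heat shock genes 5 fell (median -0.563), led by the constitutive chaperone Hspa8, with 95 and 145 CPM after DMM then LPS, against 606 and 683 CPM after LPS (-2.43 ± 0.39). On leaving out single libraries the calls of Gnb2l1, Hspa5, Calr and Hspa8 held in all 4 fits. The amino-acid stress genes of ATF4 gave 2 lower of 17, or 11.8%, near the 10.5% of all tested genes that fell. Their median changed sign between scalings (-0.0645, against 0.184 with upper-quartile scaling).

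The cytoskeleton was a further abundant group, also chosen after values were seen. Of 43 actin, actin-binding and motor genes 31 fell and 2 rose (median -1.33). Actb, which encodes β-actin, had 3198 and 4370.4 CPM after DMM then LPS, against 19988 and 21799 CPM after LPS (log2 fold change -2.47 ± 0.46, adjusted p = 0.000386). Actr2 of the actin-nucleating Arp2/3 complex changed by -2.33 ± 0.39, and the 2 that rose were Ezr, a linker of actin to the membrane (2.08 ± 0.45), and the tropomyosin gene Tpm1 (1.33 ± 0.41). Tubulin genes fell for 6 of 8 (median -1.97), and Tubb5 had 189.9 and 218 CPM after DMM then LPS, against 1237 and 1245 CPM after LPS (-2.60 ± 0.41). Actin and tubulin genes have near-identical copies and pseudogenes. In the leave-out fits the calls of Actb, Actr2 and Tubb5 held in all 4 fits. Ezr (1.73) lost its call without LPS replicate B, and Tpm1 (1.35, 1.32 and 0.73) without either DMM then LPS replicate or LPS replicate B.

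**Figure D3:**
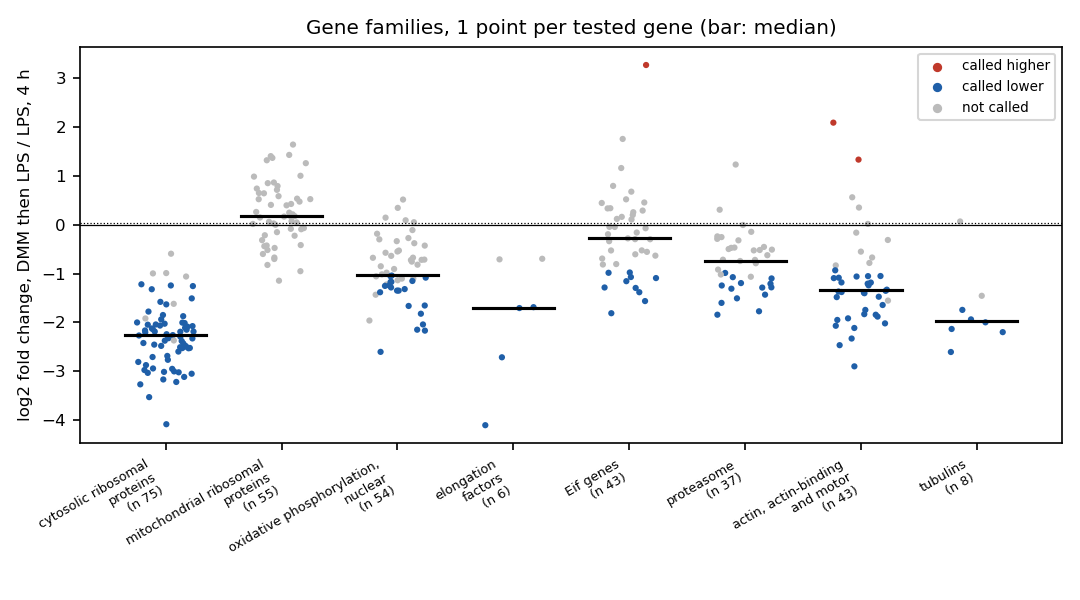
Log2 fold change of DMM then LPS over LPS at 4 h for every tested member of gene families, 1 point per gene and a bar at the median, with called genes coloured by direction and a dotted line at the median of all genes. Cytosolic ribosomal protein genes lie between -4.08 and -0.595 with a median of -2.27, and mitochondrial ribosomal protein genes scatter around a median of 0.173.

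Inflammatory mediator genes moved in both directions. Of 8 tested pro-inflammatory cytokine and mediator genes 3 fell and none rose (median -0.675). Tnf, the cytokine gene among these 3, had 102 and 144 CPM after DMM then LPS, against 367 and 364 CPM after LPS (log2 fold change -1.58 ± 0.28, adjusted p = 0.000265). The other 2 encode receptors and not cytokines, Marco and the lectin receptor for mycobacterial lipids Clec4e. Clec4e had 1592 and 2355 CPM after DMM then LPS, against 8436 and 11434 CPM after LPS (-2.33 ± 0.43). Il1b, the interleukin-1β gene, had 3466 and 6029 CPM after DMM then LPS, against 6529.8 and 9244 CPM after LPS, a change of -0.73 ± 0.45 that was not called (adjusted p = 0.293). Among 11 inflammasome and interleukin-1 axis genes, the receptor antagonist Il1rn (0.97 ± 0.33, adjusted p = 0.0447) and the interleukin-18 binding protein Il18bp (1.56 ± 0.40) rose, while the sensor Nlrp3 (-1.58 ± 0.32) and the pore former Gsdmd (-1.04 ± 0.28) fell. This list's median was -0.119, and 0.129 with upper-quartile scaling. Exons of Il18bp overlap those of Numa1. Omitting single libraries, the calls of Tnf, Clec4e and Nlrp3 held in all 4 fits. Il1rn (0.72 to 1.27) lost its call in all 4 fits. Gsdmd (-0.85 and -0.92) lost its call without DMM then LPS replicate A or LPS replicate A, and Il18bp (1.46, 1.44 and 1.69) without DMM then LPS replicate A or either LPS replicate. The cytokine genes Il6 and Il10 were too scarce to test, with at most 3 and 8 counts in a library.

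Chemokine genes were lower for 7 of 14 tested members, with no member above 0 under TMM scaling (median -1.14). Ccl9, a ligand of the receptor CCR1, had 127 and 231 CPM after DMM then LPS, against 1385 and 1934 CPM after LPS (-3.22 ± 0.41), and its relative Ccl6 changed by -2.96 ± 0.38. The monocyte attractant gene Ccl7 changed by -2.25 ± 0.35. Cxcl2, an attractant of neutrophils, had 73.1 and 81.7 CPM after DMM then LPS, against 244 and 252 CPM after LPS (-1.68 ± 0.35). The others called were Ccl3 (-1.21 ± 0.41), Ccl4 (-1.06 ± 0.31) and Ccl12 (-1.19 ± 0.36), and upper-quartile scaling called 4 of the 14. Leaving out each library, the calls of Ccl9, Ccl6 and Ccl7 held in all 4 fits. Ccl3 (-1.50 to -0.94) lost its call in all 4 fits. Cxcl2 (-1.59) lost its call without DMM then LPS replicate A, and Ccl4 (-0.92, -1.18 and -0.78) and Ccl12 (-1.02, -1.33 and -0.72) without either DMM then LPS replicate or LPS replicate B. The Cxcl2 promoter from just before a match to the NF-κB motif to 25 bases after the start is printed as an example of an LPS-responsive promoter, with the match in capitals (chr5:90903798-90903923, plus strand, RefSeq, GRCm38.p6).
Cxcl2: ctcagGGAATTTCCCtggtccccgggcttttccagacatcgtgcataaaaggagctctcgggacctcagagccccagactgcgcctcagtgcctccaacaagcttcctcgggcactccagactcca
This motif, searched on both strands, was found for 5.14% of the 27025 genes with a promoter in the table. Each promoter runs from 250 bases before to 50 bases after a start.

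Of 14 tested genes of arginine, nitric oxide and polyamine metabolism 3 rose and 2 fell. Arg1, which turns arginine into ornithine and urea, had 1529 and 2732 CPM after DMM then LPS, against 293 and 404 CPM after LPS (log2 fold change 2.61 ± 0.45, adjusted p = 0.000211). Nos2, which makes nitric oxide from arginine, had 436 and 471 CPM after DMM then LPS, against 139.7 and 158 CPM after LPS (log2 fold change 1.61 ± 0.33, adjusted p = 0.00133). Both arginine-consuming enzymes were higher in each DMM then LPS library than in either LPS library. Ddah2 was also called higher, but the rule that named it required that separation. Slc7a2, the transporter that brings arginine into the cell, had 51.7 and 50.1 CPM after DMM then LPS, against 458 and 414 CPM after LPS (-3.09 ± 0.33, adjusted p = 4.85e-07). Ass1, which resynthesises arginine from citrulline, changed by -1.80 ± 0.45. The median of the 14 was -0.0205, or 0.223 with upper-quartile scaling. As single libraries were omitted, the calls of Arg1, Nos2 and Slc7a2 held in all 4 fits. Ass1 (-1.71, -1.86 and -1.52) lost its call without either DMM then LPS replicate or LPS replicate B.

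Of 17 tested genes of the prostaglandin and leukotriene pathway 2 rose and 2 fell, or 23.5% called against 14% over all tested genes. Ptgs2, the inducible cyclooxygenase that makes the common precursor, had 194 and 231 CPM after DMM then LPS, against 76.8 and 78.5 CPM after LPS (log2 fold change 1.45 ± 0.29, adjusted p = 0.000816). Ptges, which turns that precursor into prostaglandin E2, had 447 and 584 CPM after DMM then LPS, against 2119 and 2169.7 CPM after LPS (-2.06 ± 0.38, adjusted p = 0.000396). The prostaglandin E2 receptor gene Ptger2 rose (2.20 ± 0.63), and Alox5ap, which serves leukotriene synthesis, fell (-1.19 ± 0.40). The remaining 13 were not called. Across the leave-out fits the calls of Ptgs2 and Ptges held in all 4 fits. Alox5ap (-1.51 to -0.91) lost its call in all 4 fits. Ptger2 (1.98, 2.75 and 1.80) lost its call without DMM then LPS replicate A or either LPS replicate.

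Genes of the type I interferon response were lower for 15 of 41 tested members and higher for none (median -0.72). Isg15, a ubiquitin-like protein, had 15.7 and 12.1 CPM after DMM then LPS, against 75.7 and 94.7 CPM after LPS (log2 fold change -2.58 ± 0.42, adjusted p = 0.000125). Zbp1, a sensor of nucleic acids in the Z form, changed by -1.82 ± 0.32, and Ifi205 had 7.87 and 4.64 CPM after DMM then LPS, against 59.7 and 65.6 CPM after LPS (-3.23 ± 0.40). Of the 15 calls 6 were kept in all 4 leave-out fits, those 3 genes among them. Ifi204 and Ifi205, and Oas1a and Oas1g, are closely similar pairs whose counts are uncertain. The Isg15 promoter over the matching stretch is printed because it holds a repeat of GAAA, any 2 letters and GAAA again, the core that interferon regulatory factors bind, in capitals (chr4:156200794-156200889, minus strand, RefSeq, GRCm38.p6).
Isg15: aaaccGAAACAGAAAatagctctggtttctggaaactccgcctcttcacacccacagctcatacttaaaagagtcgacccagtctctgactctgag
That repeat, on either strand, was found for 3.99% of the 27025 genes with a promoter in the table.

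Among 24 scavenger, lectin and phagocytic receptor genes 9 fell and 2 rose (median -0.841). Cd36, a receptor for oxidised lipids and fatty acids, had 217 and 231 CPM after DMM then LPS, against 756 and 1048 CPM after LPS (-2.01 ± 0.42), and the inhibitory Fc receptor Fcgr2b changed by -2.39 ± 0.42. The 2 that rose were Trem2, a lipid-sensing receptor (28.7 and 40.9 CPM after DMM then LPS, against 8.53 and 11.8 CPM after LPS, 1.74 ± 0.41), and Cd5l, a secreted scavenger protein (1.78 ± 0.41). The adaptor that Trem2 signals through, Tyrobp, fell (-1.90 ± 0.43). Complement genes were lower for 5 of 10 (median -1.86), including the 3 chains of C1q and the anaphylatoxin receptor C5ar1 (425 and 516 CPM after DMM then LPS, against 1999.6 and 2048 CPM after LPS, -2.11 ± 0.34); C1qa changed by -2.84 ± 0.62. Of 18 LPS-sensing genes 4 fell, or 22.2%, against 10.5% of all tested genes. These were Tlr1 (-3.01 ± 0.56), Tlr7 (-1.12 ± 0.34), Tlr8 (-1.37 ± 0.37) and the kinase Irak1 (-1.48 ± 0.44), while the LPS receptor Tlr4 was not called (0.05 ± 0.30). Under single-library omission the calls of Cd36, Fcgr2b, C5ar1 and Tlr1 held in all 4 fits. Tyrobp (-1.63) and C1qa (-2.75) lost their calls without DMM then LPS replicate A, and Trem2 (1.53) without LPS replicate A. Cd5l (1.42 and 1.41) lost its call without DMM then LPS replicate A or LPS replicate B, and Tlr7 (-1.37, -0.91 and -0.48) without either DMM then LPS replicate or LPS replicate B. Tlr8 (-1.06 and -1.26) lost its call without DMM then LPS replicate B or LPS replicate B, and Irak1 (-1.59, -1.39 and -1.22) without either DMM then LPS replicate or LPS replicate A.

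Of the 22 feedback inhibitors of Toll-like receptor and cytokine signalling 3 fell, or 13.6%, near the 10.5% of all tested genes that fell. These were Zc3h12a (-2.10 ± 0.52), Tnip1 (-1.37 ± 0.30) and Irak3 (-1.36 ± 0.35), and the list's median was -0.247. Acute-phase and host defence genes gave 3 lower of 9 (Hp -1.88 ± 0.39, Slpi -1.61 ± 0.47 and Cfb -1.88 ± 0.39). Zc3h12a (-2.12 and -1.98) lost its call without DMM then LPS replicate A or LPS replicate B, and Tnip1 (-1.24), Hp (-1.64) and Cfb (-1.59) without DMM then LPS replicate A. Irak3 (-1.39, -1.30 and -1.32) lost its call without either DMM then LPS replicate or LPS replicate B, and Slpi (-1.26, -1.64 and -1.58) without DMM then LPS replicate A or either LPS replicate. The 10 immediate early and AP-1 genes tested gave no call (median 0.198), and Atf3 came nearest with 128 and 162 CPM after DMM then LPS, against 64.0 and 66.7 CPM after LPS (1.14 ± 0.41, adjusted p = 0.0646). No gene of antigen presentation by MHC class II or of co-stimulation was called among 10 (median 0.887), and the class II gene H2-Ab1 had 38.2 and 59.4 CPM after DMM then LPS, against 14.9 and 16.1 CPM after LPS (1.62 ± 0.71, adjusted p = 0.147). None of 4 tested alternative activation genes was called.

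Of 20 glycolysis and lactate export genes 2 fell, near the 10.5% of all tested genes that fell. These were Aldoa of the aldolase step (1866 and 2723 CPM after DMM then LPS, against 6213 and 6247 CPM after LPS, -1.44 ± 0.38) and the lysosomal sugar transporter Slc2a6 (-1.20 ± 0.31). The median was -0.503, and the glucose transporter Slc2a1 had 128 and 132 CPM after DMM then LPS, against 145 and 137 CPM after LPS (-0.12 ± 0.25, adjusted p = 0.8). In the pentose phosphate pathway 2 of 6 tested genes fell, its rate-setting dehydrogenase G6pdx (80.9 and 79.9 CPM after DMM then LPS, against 295 and 269 CPM after LPS, -1.81 ± 0.32) and the transketolase Tkt (-1.67 ± 0.33). Exons of G6pdx overlap those of Ikbkg. Hif1a, the oxygen-regulated factor that succinate is known to stabilise as a protein, had 305 and 391 CPM after DMM then LPS, against 651 and 721 CPM after LPS (-0.98 ± 0.36, adjusted p = 0.0653). Of 18 HIF-1 genes outside glycolysis 3 rose and none fell (median 0.164), namely the demethylase Kdm3a (18.0 and 15.8 CPM after DMM then LPS, against 2.13 and 3.23 CPM after LPS, 2.62 ± 0.61), the adenylate kinase Ak4 (1.81 ± 0.47) and the prolyl hydroxylase P4ha2 (1.20 ± 0.39). After each omission the calls of G6pdx and Tkt held in all 4 fits. Ak4 (1.62 to 2.04) lost its call in all 4 fits. Aldoa (-1.19, -1.44 and -1.44) lost its call without DMM then LPS replicate A or either LPS replicate, and Slc2a6 (-1.14, -1.23 and -1.01) without either DMM then LPS replicate or LPS replicate A. Kdm3a (2.36) lost its call without LPS replicate A, and P4ha2 (0.91 and 0.76) without DMM then LPS replicate A or LPS replicate A.

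Genes of lipid activation and export were among those that fell. Of 29 cholesterol genes 5 fell, or 17.2%, against 10.5% of all tested genes. The list's median was -0.25, and -0.00434 with upper-quartile scaling. Those that fell included the sterol sensor partner Insig1 (4.496 and 2.79 CPM after DMM then LPS, against 36.3 and 22.6 CPM after LPS, -2.91 ± 0.71) and the exporters Abca1 (-1.39 ± 0.35) and Abcg1 (-1.88 ± 0.39). In fatty acid and lipid handling 5 of 25 fell and 1 rose (median -0.919), or 24% called against 14% over all tested genes. Ch25h, which makes 25-hydroxycholesterol, had 15.2 and 12.1 CPM after DMM then LPS, against 138 and 123 CPM after LPS (-3.22 ± 0.63), and Acsl1, which activates long-chain fatty acids, changed by -2.02 ± 0.33. The gene that rose was Acadl, a dehydrogenase of fatty acid oxidation (1.45 ± 0.36). Without 1 library at a time the call of Acsl1 held in all 4 fits. Insig1 (-3.34, -2.67 and -2.53) lost its call without either DMM then LPS replicate or LPS replicate A, and Abca1 (-1.32 and -1.44) without either DMM then LPS replicate. Abcg1 (-1.73) and Ch25h (-3.41) lost their calls without DMM then LPS replicate A, and Acadl (1.10 and 1.28) without DMM then LPS replicate B or LPS replicate A.

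NRF2 and glutathione genes gave 5 lower and 1 higher of 26 (median -0.257), or 23.1% called against 14% over all tested genes. The superoxide dismutase Sod1 was lowest (-2.61 ± 0.64) and the glutathione transferase Gstm1 was the 1 that rose (1.47 ± 0.37). Of 13 iron genes the iron-sensing ubiquitin ligase adaptor Fbxl5 rose (202 and 245 CPM after DMM then LPS, against 92.8 and 87.1 CPM after LPS, 1.31 ± 0.28), with exons that overlap those of Bst1, and none fell. Lysosomal and proton pump genes were lower for 7 of 41 and higher for 1 (median -0.427), or 19.5% called against 14% over all tested genes. Ctsc fell (-2.53 ± 0.43) and the collagen-degrading cathepsin Ctsk rose (19.7 and 12.1 CPM after DMM then LPS, against 2.13 and 4.30 CPM after LPS, 2.30 ± 0.77). Among 9 matrix metalloproteinases and inhibitors, Mmp12 rose while Mmp9 (18.5 and 26.0 CPM after DMM then LPS, against 155 and 139 CPM after LPS, -2.73 ± 0.41), Mmp14 (-2.05 ± 0.36) and Adam17 (-1.05 ± 0.33) fell. Per omitted library the calls of Fbxl5, Mmp9, Mmp14 and Ctsc held in all 4 fits. Ctsk (1.88 to 2.87) and Adam17 (-1.11 to -0.97) lost their calls in all 4 fits. Sod1 (-2.11) lost its call without DMM then LPS replicate A, and Gstm1 (1.49 and 1.35) without DMM then LPS replicate A or LPS replicate A. Cell cycle and DNA replication genes gave 3 lower of 42, or 7.14%, under the 10.5% of all tested genes that fell. These were Ccnd3 (-1.47 ± 0.35), Tuba1b (-1.94 ± 0.40) and Rrm2. Rrm2 had no count after DMM then LPS against 4 counts after LPS. It was at least 2.04-fold lower, taking 3 counts over the group as the floor. Apoptosis and survival genes gave 2 higher and 1 lower of 21, or 14.3% called, near the 14% over all tested genes. Osmolyte genes gave 2 of each of 8.

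**Figure D4:**
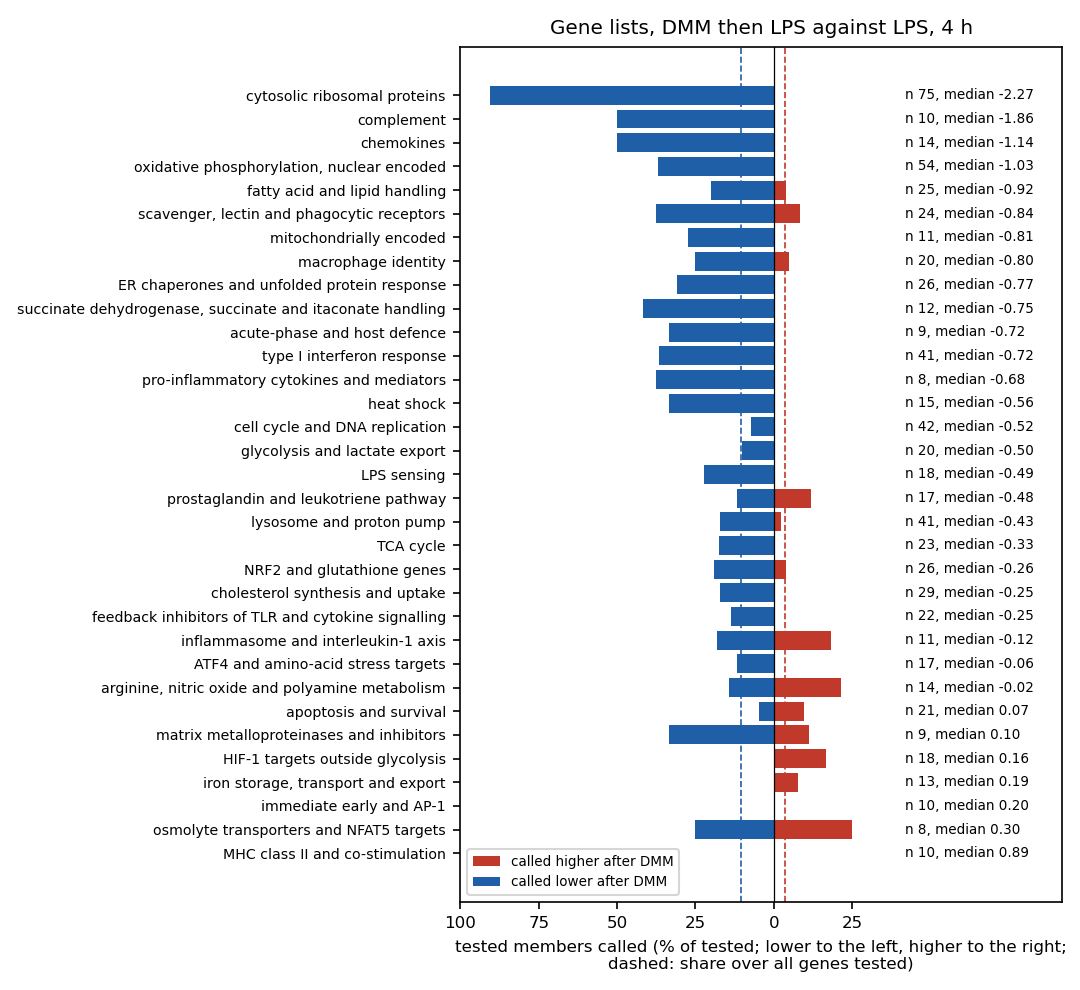
Share of tested members called lower (to the left) and higher (to the right) in each gene list for DMM then LPS over LPS at 4 h, in percent of members tested, with dashed lines at the share over all genes tested (10.5% lower and 3.54% higher). Cytosolic ribosomal proteins have 68 of 75 members lower, and HIF-1 genes outside glycolysis have 3 of 18 higher and none lower.

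Markers of the labelled cell type were abundant in all 4 libraries but not equal. The summed level of the macrophage identity list was 97300 and 146100 CPM after DMM then LPS, against 148400 and 171300 CPM after LPS, and 5 of its 20 tested genes fell while Trem2 rose. Csf1r, the M-CSF receptor, had 2504 and 3271 CPM after DMM then LPS, against 7847 and 7749 CPM after LPS (-1.43 ± 0.42). Emr1, which encodes F4/80, had 4602 and 7491 CPM after DMM then LPS, against 17727 and 20605 CPM after LPS (-1.66 ± 0.55), and the integrin gene Itgam had 849 and 1128 CPM after DMM then LPS, against 3966 and 4164 CPM after LPS (-2.04 ± 0.43). Cd68 was not called (259.6 and 357 CPM after DMM then LPS, against 278 and 329 CPM after LPS, 0.02 ± 0.37). Csf1r (-1.63 to -1.25) and Emr1 (-2.05 to -1.35) lost their calls in all 4 fits. Itgam (-1.84) lost its call without DMM then LPS replicate A. Their part in the other results was not tested.

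Other cell types left few reads. Neutrophil markers summed to 320 and 440 CPM after DMM then LPS, against 282 and 308 CPM after LPS, with 4 of 15 genes tested and 9, among them Ly6g and Elane, at 0 in all 4 libraries. The 2 called were Mmp9, which fell, and S100a8, with 199.5 and 320.3 CPM after DMM then LPS, against 41.6 and 66.7 CPM after LPS (log2 fold change 2.26 ± 0.32, adjusted p = 5.09e-05), whose partner gene S100a9 was at 0 in all 4. Markers of B cells, T and NK cells, dendritic cells, mast cells and erythroid cells each summed to under 4 CPM in each of the 4 libraries compared. Fibroblast and stroma markers summed to 43.3 and 37.1 CPM after DMM then LPS, against 21.3 and 6.45 CPM after LPS, and their called gene was the matrix proteoglycan Dcn (2.34 ± 0.51). Osteoclast markers summed to 47.8 and 51.1 CPM after DMM then LPS, against 24.5 and 24.7 CPM after LPS, and their called gene was Ctsk. Of these, the call of S100a8 held in all 4 fits. Dcn (2.20 and 2.13) lost its call without DMM then LPS replicate A or LPS replicate B. What these cell types contributed to the results was not tested.

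At 48 h the same pretreatment gave 55 called genes, 0.807% of those tested (10 higher and 45 lower). These groups share no library with the 4 h groups, although at 48 h LPS without DMM was represented by 1 library, so its spread is taken from the other groups. Of the 45 genes lower at 48 h, 43 were also lower at 4 h, which is 95.6% of the 48 h list and 6.01% of the 4 h list. Of the 10 higher at 48 h, 6 were also higher at 4 h (60% and 2.49%), among them Nos2 (2.55 ± 0.47 at 48 h), Trem2 (3.25 ± 0.63), Cd5l (3.54 ± 0.53) and the diacylglycerol kinase gene Dgka (4.65 ± 0.90). Called lower at both times were Slc13a3 (-1.996 ± 0.46 at 48 h), Gpr84 (-3.89 ± 0.50), Marco (-1.94 ± 0.38), Serpinb2 (-4.01 ± 0.50), Siglece (-2.50 ± 0.38), Slc7a2 (-2.61 ± 0.38), Mmp9 (-3.40 ± 0.50) and Rpl3 (-2.55 ± 0.39). Ribosomal protein genes were lower for 2 of 75 at 48 h, with a median of -0.797. Il1b was called at 48 h (-2.75 ± 0.53) and not at 4 h, as were Igf1, Mxd1, Stard5 and Tceal8.

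The test of the difference between the 4 h and 48 h effects called 0% of genes with edgeR (0 genes, with 357 at an unadjusted p under 0.05), and DESeq2 called 1 (203 unadjusted). Genes called at 1 time are therefore not shown to differ between the times. Without DMM then LPS 48 h replicate 1, 25 genes were called for this difference. The number called at 48 h itself was 35 without that library and 337 without DMM then LPS 48 h replicate 2.

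**Figure D5:**
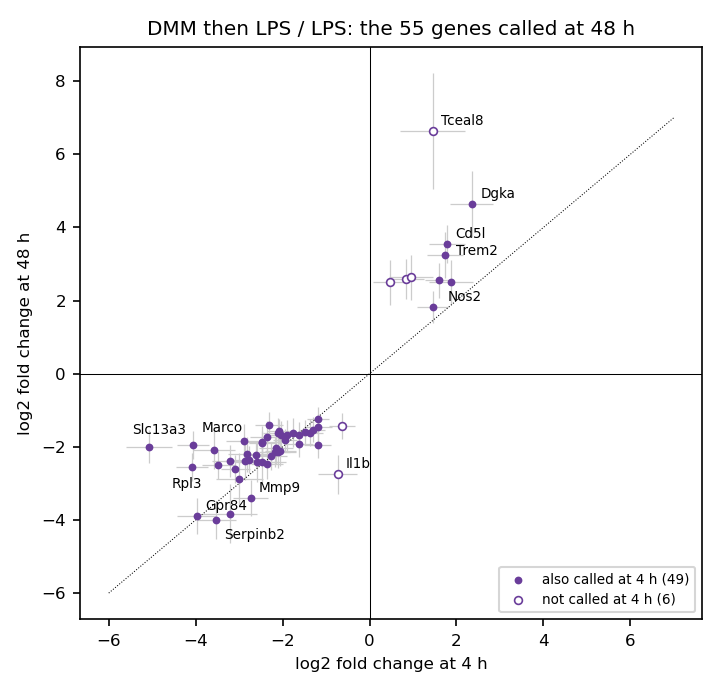
Log2 fold change of DMM then LPS over LPS at 48 h (vertical axis) against that at 4 h (horizontal axis) for the 55 genes called at 48 h, with a dotted line of equality and grey lines of 1 SE. Filled points were also called at 4 h. All but 6 of the 55 were called at both times, in the same direction.

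DMM without LPS gave fewer calls. In 4 DMM libraries against 3 untreated controls 38 genes were called, 0.558% of those tested (22 higher and 16 lower). These libraries carry no hours in the count table and pool both sets. Some genes differed within a group. In untreated control replicates 1, 3 and 4, Spp1 had 80831, 85767 and 30198 CPM and C1qa had 709, 975 and 1804 CPM. Whether such differences follow the sets cannot be told from the columns, so the effect of DMM without LPS may be partly confounded with set. Of the 38, the endothelial and macrophage receptor Eng (2.14 ± 0.38 under LPS, 1.53 ± 0.32 without LPS) and the integrin gene Itgb7 (1.89 ± 0.55, 2.25 ± 0.54) were higher in both settings. The RNA helicase Eif4a1 (-1.38 ± 0.33, -1.10 ± 0.26) was lower in both. In contrast, Emilin2 (-1.19 ± 0.27 under LPS, 0.95 ± 0.23 without LPS) and Smpdl3b (-0.999 ± 0.26, 2.06 ± 0.42) were lower under LPS and higher without it, and Syngr1 (2.60 ± 0.56, -1.43 ± 0.27) was higher under LPS and lower without it. Ribosomal protein genes gave no call without LPS, with a median of -0.245. Under LPS the call of Eng held in all 4 fits. Itgb7 (1.57, 2.02 and 1.78) and Smpdl3b (-0.79, -0.99 and -1) lost their calls without DMM then LPS replicate A or either LPS replicate, and Eif4a1 (-1.48 and -1.22) without DMM then LPS replicate A or LPS replicate A. Emilin2 (-1.10) lost its call without DMM then LPS replicate A, and Syngr1 (1.99) without LPS replicate B. The number called without LPS varied from 4 without control replicate 1 to 136 without control replicate 4.

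The effect of DMM under LPS at 4 h was tested against its effect without LPS in the same model, with the same pooling of sets. This difference was called for 370 genes, 5.43% of those tested, of which 64 had a higher and 306 a lower effect under LPS. Eef1a1 had -4.10 ± 0.45 under LPS and -0.26 ± 0.30 without it, Marco had -4.06 ± 0.38 and 1.20 ± 1.13, and Irg1 had -1.61 ± 0.46 and 1.004 ± 0.51. Marco had few counts without LPS, so its value there depends on the prior count. Leaving out DMM then LPS replicate A reduced this count to 84 genes. It was 237 without DMM then LPS replicate B, 193 without LPS replicate A, 192 without LPS replicate B and 97 with all 21 libraries.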

How the data were processed

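The deposited table holds raw counts of reads per gene symbol for 34573 genes in 21 libraries; per the submitters' processing notes the authors used TopHat2, Bowtie, HTSeq and edgeR, with no version, build, annotation or strand setting given in the sources used here. The low-count filter kept genes whose CPM exceeded that of 10 reads in a library of median size, in 2 or more libraries, and whose total was 15 or more, which left 6812. Libraries were scaled by TMM and tested with edgeR 4.0.16 (R 4.3.3), quasi-likelihood with robust estimation, in 1 model of 9 groups and 20 libraries (11 residual degrees of freedom, common biological coefficient of variation 0.23), with unstimulated libraries pooled over hours because their columns name none. Adjusted p-values are Benjamini-Hochberg over all genes tested, with a threshold of 0.05. SEs were taken from the fold change and the test statistic. Where an arm held 1 to 3 counts, the ratio of scaled counts is given with its exact 95% counting interval; where it held 0, a bound against 3 counts over the group. The procedure was tested on simulated data in which equal numbers of genes were set to rise and fall. These data held no shift with level and no difference between sets, so they do not bear on scaling or pooling.

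The members and the 43 gene lists were chosen with earlier results of these data known. The text names the 12 highest and 12 lowest changes among called genes whose groups do not overlap and whose higher group averages at least 10 CPM, without predicted genes, up to 3 called members per list with the smallest p, a fixed panel, and list members beside their counts. The 6 added families, genes kept in every leave-out fit and genes called in other comparisons were named after their values were seen. Some genes that these rules take are not reported here. Alternatives were all 21 libraries, the 4 or the stimulated libraries alone, DESeq2 1.42.0, median-of-ratios and upper-quartile scaling, no filter, a replicate block, and omission of single libraries. Promoters came from RefSeq (GRCm38.p6), matched by symbol; lengths and overlaps came from GENCODE vM21 and serve only as descriptions.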

Additional observations from a re-analysis of the deposited data

Results flagged for a closer look

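For 17 of the named genes the effect of DMM under LPS at 4 h differed from its effect without LPS, at an adjusted p under 0.05 for the difference itself in edgeR's quasi-likelihood test. The values are the effect under LPS minus the effect without LPS, on the log2 scale, with adjusted p between 6.37e-06 and 0.0452.

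Lower effects under LPS were found in the receptors and the transporter. The difference was -5.78 for Gpr84, -5.26 for Marco, -5.20 for Siglece and -8.28 for Slc13a3. The fitted effects were -3.98 under LPS and 1.80 without LPS for Gpr84, and -4.06 and 1.20 for Marco. The itaconate-producing enzyme gene Irg1 differed by -2.61 and the plasminogen activator inhibitor gene Serpinb2 by -3.21. Irg1 averaged only 8.66 CPM in untreated controls, and its effect without LPS (1.004 ± 0.51) was not called. The untreated controls held no count of Slc13a3 and few of Gpr84, Marco, Siglece and Serpinb2, so the sizes of these differences depend on the prior count.

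In the translation machinery the difference was -3.84 for Eef1a1, -3.78 for Rpl3, -3.44 for Rps23 and -3.66 for the pseudogene Rps15-ps2. The actin pseudogene Actg-ps1 differed by -5.38, Rnaset2b by -4.12 and Wdr38 by -4.10, the counts of which are uncertain for the copies or overlaps already named.

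Higher effects under LPS were found in 4 genes. The difference was 4.17 for Adssl1, 3.57 for Ddah2, 5.26 for Rhov and 3.57 for Mmp12. The first 3 had 1 or 2 counts after LPS alone, so these sizes depend on the prior count.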

How the results depend on the processing

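The direction of DMM before LPS against LPS at 4 h was the same for every called gene that an alternative also called, and no named gene that was called reversed. The 956 calls became 456 with all 21 libraries and 1754 with the 4 compared libraries alone, and ranged from 279 to 614 with 1 of these 4 left out. The 241 higher calls became 93 with all 21 libraries, 735 with the 4 libraries alone, 86 with DESeq2 and 501 with upper-quartile scaling, and ranged from 57 to 128 with 1 left out. The 715 lower calls became 363 with all 21 libraries and ranged from 222 to 486. The causes were not tested. A replicate block gave 899 calls (207 higher, 692 lower), 888 of them shared. Same-numbered libraries did not deviate together (correlation 0.00042). With 2 libraries in each group this cannot show whether the numbers pair the samples. At 48 h the 55 calls became 108 with DESeq2 and 107 without a filter on low counts, and ranged from 35 to 337 with 1 library left out. For DMM without LPS the 38 calls became 0 with all 21 libraries in edgeR (574 at an unadjusted p under 0.05; DESeq2 gave 45 with 20 libraries) and 121 without the filter, and ranged from 4 to 136. The difference between 4 h and 48 h had 1 call with DESeq2 and 6 without the filter, and 0 to 25 with 1 library left out. The difference between DMM under LPS and without LPS had 97 calls with all 21 libraries, 84 to 421 with 1 of its own libraries left out, and 521 and 526 without either DMM then LPS 48 h library. Depth limits genes near 10 CPM, where 1 read is about 1 CPM.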

Other observations

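The single library of succinate before LPS at 4 h belongs to no comparison of the 4 h DMM groups and has no replicate. In it Slc13a3 and Ifi205 each had 3.86 CPM, which rests on few reads. These were near the levels of the DMM then LPS libraries (1.69 and 2.79 CPM for Slc13a3, 7.87 and 4.64 CPM for Ifi205). They were below those of the LPS libraries (72.5 and 77.5 CPM for Slc13a3, 59.7 and 65.6 CPM for Ifi205). Arg1 with 1216 CPM and Mmp12 with 619 CPM also lay above both LPS libraries. Rpl3 with 218 CPM and Gpr84 with 480.1 CPM lay near the LPS libraries instead, and Marco with 143 CPM lay between the groups. Mmp9 with 3838 CPM and Slpi with 8866 CPM lay above both groups, although both were called lower after DMM then LPS.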
